A study of Homo sapiens with 72 samples.

Results

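Serine synthesis and folate one-carbon enzymes were followed through 9 genes, PHGDH, PSAT1, PSPH, SHMT1, SHMT2, MTHFD1, MTHFD2, MTHFD1L and ALDH1L2, taken by symbol from a table of 44659 gene names, and all 9 were found. RNA came from A375 cells, an established human melanoma line, as the cytoplasmic fraction, and was read with QuantSeq, which counts the 3′ ends of polyadenylated mRNAs. In the siRNA experiment, cells had been transfected for 42 h with 2 pooled siRNAs against CTU2, a subunit of the enzyme that thiolates the wobble uridine of some tRNAs (siCTU2), or with the control siRNA siGL2. In the medium experiment, cells had spent 18 h either deprived of glutamine (mQ) or supplied with it (pQ). All cells then received triptolide, a transcription inhibitor, at 25 µM. In the T arm it was given by itself, and in the TCHX arm the translation inhibitor cycloheximide was added at 100 µg/ml. Cells were harvested at 0, 3 or 5 h, so that every group, controls included, carried triptolide. With 3 replicates in each of 24 groups there were 72 libraries of 5987692 to 15534331 counts. Nothing stated that replicates were separate cultures, so the p-values measure the spread between these libraries, which may be technical.

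Serine is made from a glycolytic intermediate in a chain of reactions by PHGDH, the dehydrogenase at the first step, PSAT1, the transaminase, and PSPH, the phosphatase. The transaminase step takes its amino group from glutamate, which cells make from glutamine. SHMT1 in the cytosol and SHMT2 in mitochondria split serine into glycine and a one-carbon unit carried by folate. MTHFD2 and then MTHFD1L convert that unit to formate in mitochondria, and MTHFD1 takes formate up again in the cytosol for purine and thymidylate synthesis. ALDH1L2 oxidizes the mitochondrial formyl unit to carbon dioxide. In GENCODE v44 (GRCh38) the genes, all protein-coding, are PHGDH on chromosome 1 (119648411 to 119744218, plus strand), PSAT1 on chromosome 9 (78297125 to 78330093, plus strand), PSPH on chromosome 7 (56011051 to 56051604, minus strand), SHMT1 on chromosome 17 (18327860 to 18363563, minus strand), SHMT2 on chromosome 12 (57229573 to 57234935, plus strand), MTHFD1 on chromosome 14 (64388031 to 64463457, plus strand), MTHFD2 on chromosome 2 (74186172 to 74217565, plus strand), MTHFD1L on chromosome 6 (150865679 to 151101887, plus strand), ALDH1L2 on chromosome 12 (105019784 to 105107643, minus strand). Several of these genes are textbook targets of ATF4, the transcription factor of the amino acid response.

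Some libraries stood apart. Counts were found for 19896 to 20364 genes in 3 libraries, all of replicate 3 (the one labelled siCTU2 TCHX 5 h, that of pQ TCHX 0 h and that of mQ T 5 h), against 15507 to 17495 in the other 69. The summed level of the 5 blood markers examined was 63.7 to 64.9 CPM (counts scaled to the same total in every library) in these 3 libraries and at most 1.58 CPM in the others, with PTPRC at 31.1 to 32.6 CPM and CD3E at 31.1 to 32.6 CPM. CTU2 stood at 10.4 CPM in the library labelled siCTU2 TCHX 5 h, and at 0.203 and 0.168 CPM in replicates 1 and 2 of its group. That library lay below all siGL2 libraries, the lowest of which was at 17.5 CPM. Whether its label or other RNA accounts for this was not tested. At 0 h in the T arm CTU2 was at 1.76 ± 1.04 CPM (SD, n = 3) in siCTU2 and 22.5 ± 1.58 CPM in siGL2. Of the 9 melanocyte and melanoma markers, 6 had a median of at least 1 CPM (SOX10, MITF, PMEL, DCT, S100B and CSPG4), while MLANA, TYR and PRAME had not. The 4 epithelial markers summed to at most 1.42 CPM. Of the 4 fibroblast markers, 2 had a median of at least 1 CPM (LUM and PDGFRA), while DCN and COL1A1 had not. The 4 summed to between 3.47 and 17.3 CPM, and the source of these counts was not tested. In bulk RNA, fewer cells of a type and less RNA per cell cannot be told apart. The table also lists an extra copy of SHMT1 with 6 counts and the pseudogene MTHFD2P1 with 68 counts over all libraries, and reads could have been divided between these names.

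Promoters are shown because 6 of 7 genes that could be tested in both media rose without glutamine, as given further on. RefSeq (GRCh38.p14) gave promoters for 6 of the 9 genes, and PSPH, SHMT2 and ALDH1L2 had no entry. The motifs searched were TGATGNAA, the core of the amino acid response element, and CACGTG, the E-box, on both strands of the 250 bases before each start. The windows of 4 genes that rose are printed 5′ to 3′ with matches in capitals, for MTHFD1L from the first of its 4 listed starts.
PHGDH, chr1:119711684-119711933, plus strand: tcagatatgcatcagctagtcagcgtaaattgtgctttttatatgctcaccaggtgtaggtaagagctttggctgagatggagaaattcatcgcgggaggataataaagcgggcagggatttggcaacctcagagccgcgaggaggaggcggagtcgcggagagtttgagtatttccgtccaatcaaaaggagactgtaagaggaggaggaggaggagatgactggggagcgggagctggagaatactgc
PSAT1, chr9:78296875-78297124, plus strand: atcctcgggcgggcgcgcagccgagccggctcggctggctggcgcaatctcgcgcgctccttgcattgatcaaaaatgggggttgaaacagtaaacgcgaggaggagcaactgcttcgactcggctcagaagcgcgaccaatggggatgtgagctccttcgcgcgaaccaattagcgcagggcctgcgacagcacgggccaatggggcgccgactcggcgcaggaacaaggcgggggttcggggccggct
MTHFD2, chr2:74198365-74198614, plus strand: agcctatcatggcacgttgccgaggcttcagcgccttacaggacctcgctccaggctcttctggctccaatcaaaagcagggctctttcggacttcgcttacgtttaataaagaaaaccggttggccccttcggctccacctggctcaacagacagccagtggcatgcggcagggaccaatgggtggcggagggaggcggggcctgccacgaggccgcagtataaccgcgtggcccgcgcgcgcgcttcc
MTHFD1L, chr6:150866236-150866485, plus strand: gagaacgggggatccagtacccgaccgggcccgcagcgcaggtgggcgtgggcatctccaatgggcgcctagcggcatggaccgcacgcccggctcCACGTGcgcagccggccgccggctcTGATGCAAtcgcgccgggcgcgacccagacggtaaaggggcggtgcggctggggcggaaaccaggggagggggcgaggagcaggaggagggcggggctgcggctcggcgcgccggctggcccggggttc
MTHFD1L held TGATGCAA from base -129 and CACGTG from base -154, counted from the start. Of its other 3 listed starts, the window beginning at 150866197 overlaps this one and held the same motifs, from bases -90 and -115, and those beginning at 150866083 and 151006758 held neither. The windows of PHGDH, PSAT1 and MTHFD2 held neither motif. MTHFD1, which did not rise, held CACGTG from base -15, and SHMT1 held neither. Among all 35116 listed promoters, 3.14% held TGATGNAA and 6.34% held CACGTG. A match describes these letters only.

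Without glutamine, the expression level of the serine synthesis enzymes and of most mitochondrial folate enzymes was higher at 0 h. Of 7 genes with enough counts for the test, 6 were higher in mQ than in pQ and 0 were lower, whereas 12.5% of the 12374 genes tested were higher, 12.4% were lower and 24.8% were called in all. Their median log2 difference was 1.36, beside 0.01 over all genes. The members were chosen with earlier results of these data known, so the contrast with the background is a description. ALDH1L2 passed the filter on low counts only through its mQ libraries, so that it could be called in 1 direction only, and it was left out of this count. SHMT1 had too few counts. All these tests were edgeR quasi-likelihood tests of 3 against 3 T arm libraries, with adjusted p-values over all genes.

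PHGDH stood at 189, 183 and 222 CPM in the mQ libraries and at 39.0, 37.2 and 43.1 CPM in the pQ libraries. The ranges did not overlap, and the log2 difference was 2.37 (SE 0.12, adjusted p = 2.83e-07), or 5.16-fold. PSPH, the last enzyme of the chain, stood at 117, 128 and 129 CPM in mQ and 24.8, 25.8 and 23.8 CPM in pQ. Its log2 difference of 2.38 (SE 0.11, adjusted p = 2.69e-07) lay within 1 SE of that of PHGDH. PSAT1, between them, varied more within mQ, at 406, 276 and 528 CPM, against 133, 138 and 121 CPM in pQ. Even the lowest mQ library was above all pQ libraries, and the log2 difference was 1.68 (SE 0.19, adjusted p = 1.42e-04).

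Among the folate enzymes, MTHFD2 stood at 805, 593 and 883 CPM in mQ and at 325, 323 and 274 CPM in pQ, a log2 difference of 1.36 (SE 0.14, adjusted p = 8.33e-05). SHMT2, which feeds it, stood at 386, 456 and 397 CPM in mQ and at 191, 192 and 189 CPM in pQ, a log2 difference of 1.17 (SE 0.10, adjusted p = 2.40e-05). In both genes every mQ library was above every pQ library. MTHFD1L rose least of the genes called, from 52.7, 53.3 and 50.9 CPM to 72.0, 67.2 and 81.7 CPM (log2 difference 0.55, SE 0.11, adjusted p = 0.00565). The cytosolic MTHFD1 went the other way without passing the test, with 117, 112 and 105 CPM in mQ and 138, 139 and 137 CPM in pQ (log2 difference -0.26, SE 0.10, adjusted p = 0.0769). Its ranges did not overlap, and it passed when both arms at 0 h were fitted together (log2 difference -0.24, adjusted p = 0.0102).

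ALDH1L2 was hardly detected outside mQ. It had 223 counts over the 3 mQ libraries (7.92, 6.85 and 9.78 CPM) and 7 counts over the 3 pQ libraries, all in replicate 3 (0.568 CPM). The ratio of the pooled rates was 36.9, with an exact 95% interval of 17.6 to 93.0 that covers counting error only. Without pQ replicate 3 the pQ counts were 0, and set to a floor of 3 counts they gave a ratio of 52.9. That value is no lower bound, because leaving out the only pQ library with counts can only raise the ratio. SHMT1 had 0 to 9 counts per library and 126 counts over all 72 libraries. At 0 h in the T arm it had 4 counts in mQ and 16 in pQ, a ratio of 0.290 with an exact 95% interval of 0.0705 to 0.899, but in the TCHX arm it had 6 and 5 counts, a ratio of 1.04 (0.264 to 4.30). In 18 of the 72 libraries it had 0.

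The TCHX arm at 0 h holds the library pQ TCHX 0 h replicate 3, in which PHGDH was at 104 CPM and PSPH at 46.6 CPM, against at most 35.4 and 31.7 CPM in replicates 1 and 2. With it, the TCHX arm gave log2 differences of 1.67 for PHGDH and 1.80 for PSPH, and without it they were 2.48 and 2.10. This library also held 27 of the 29 counts of ALDH1L2 in its group, against 187 counts in mQ, and the ratio was 5.58 (exact 95% interval 3.76 to 8.57, counting error only). The part of blood RNA in this library's values was not tested.

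**Figure D1:**
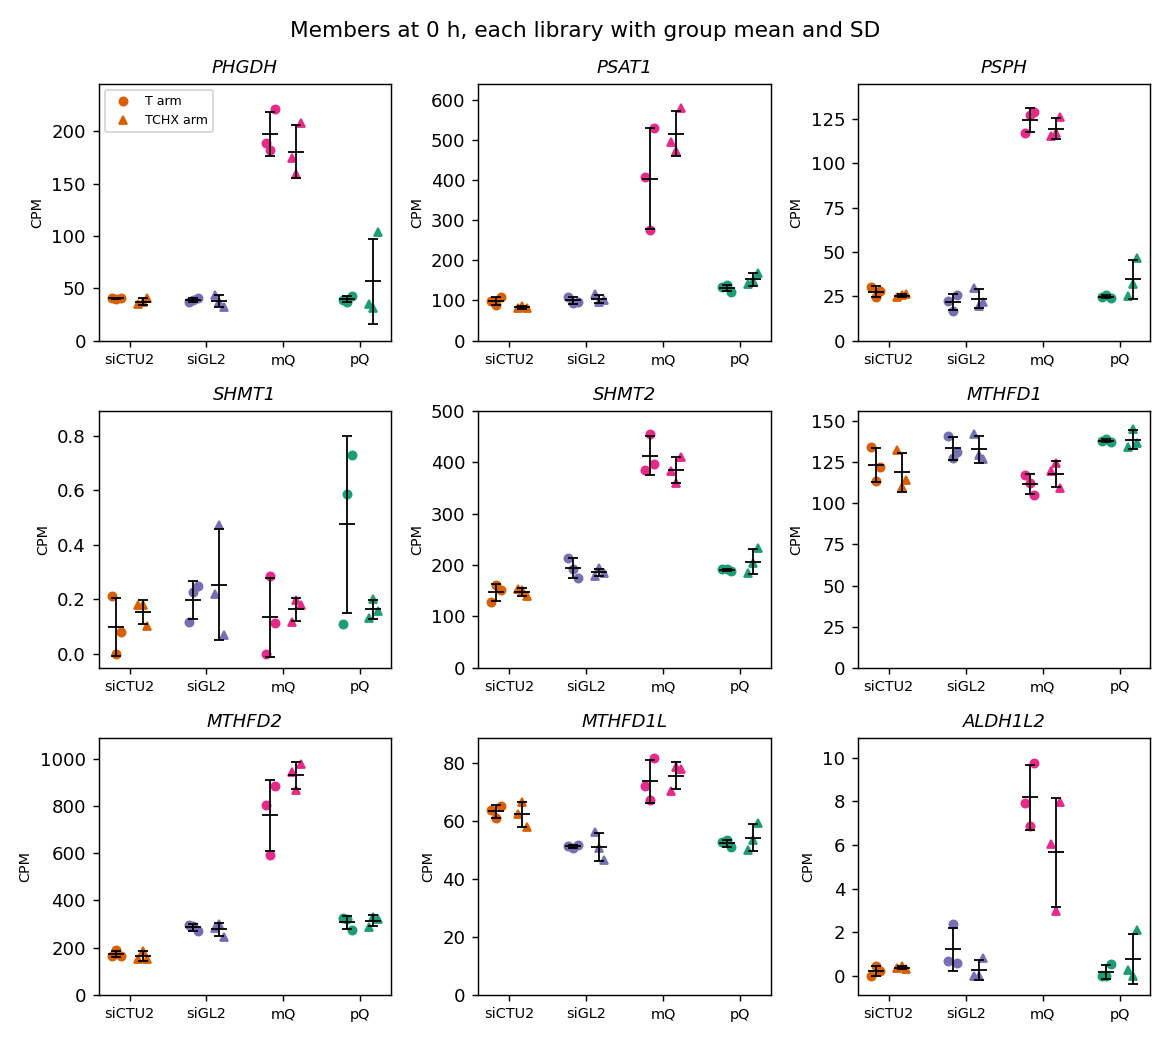
Level in CPM of each of the 9 genes at 0 h in every library (circles T arm, triangles TCHX arm) with the group mean and SD (n = 3), by condition. PHGDH, PSAT1, PSPH, SHMT2, MTHFD2 and ALDH1L2 lie higher in mQ than elsewhere, and 1 pQ TCHX library reaches 104 CPM for PHGDH.

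Silencing of CTU2 gave another pattern at 0 h, with MTHFD2 and SHMT2 lower and MTHFD1L higher. Of the 7 genes tested, 2 were lower and 1 was higher, whereas 18.2% of the 12292 genes tested were lower, 17.8% were higher and 36% were called in all, so the share of these enzymes was near the background. SHMT1 and ALDH1L2 had too few counts. The median log2 difference of the 7 genes was -0.01, beside 0.00 over all genes.

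MTHFD2 stood at 167, 190 and 164 CPM in siCTU2 and at 297, 290 and 269 CPM in siGL2. The ranges did not overlap, and it fell by 0.72 on the log2 scale (SE 0.08, adjusted p = 8.05e-07). SHMT2 stood at 128, 161 and 151 CPM in siCTU2 and at 214, 193 and 175 CPM in siGL2, and fell by 0.40 (SE 0.09, adjusted p = 0.00219). MTHFD1L stood at 63.9, 60.8 and 65.1 CPM in siCTU2 and at 51.3, 50.7 and 51.7 CPM in siGL2, with a log2 difference of 0.30 (SE 0.09, adjusted p = 0.0180). That call was lost without siCTU2 replicate 3 (log2 difference 0.28, adjusted p = 0.0576), without siGL2 replicate 1 (0.29, adjusted p = 0.0611) and without siGL2 replicate 2 (0.29, adjusted p = 0.0518).

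Of the serine synthesis enzymes, none passed the edgeR test in this comparison. PHGDH stood at 40.3, 39.8 and 40.9 CPM in siCTU2 and at 37.3, 38.9 and 40.3 CPM in siGL2, and the ranges overlapped (log2 difference 0.05, SE 0.11). PSAT1 stood at 99.0, 88.7 and 109 CPM against 109, 94.5 and 96.1 CPM, also overlapping (log2 difference -0.01, SE 0.09). In the TCHX arm at 0 h PSAT1 was lower in siCTU2 (log2 difference -0.33, adjusted p = 0.00766). PSPH stood at 30.5, 24.3 and 28.1 CPM against 22.2, 16.7 and 25.8 CPM (log2 difference 0.36, SE 0.16, adjusted p = 0.0881). With the replicate number as a block it passed (log2 difference 0.37, adjusted p = 0.0315), as it did without siGL2 replicate 3 (0.50, adjusted p = 0.0321). The cytosolic MTHFD1 stood at 134, 113 and 122 CPM in siCTU2 and at 141, 128 and 131 CPM in siGL2, with overlapping ranges (log2 difference -0.12, SE 0.08, adjusted p = 0.303). ALDH1L2 had 8 counts in siCTU2 and 32 in siGL2, a ratio of 0.193 (exact 95% interval 0.0768 to 0.427, counting error only), but siGL2 replicate 2 held 21 of the 32. Without that library the ratio was 0.367 (0.128 to 1.00), and in the TCHX arm ALDH1L2 had 12 and 12 counts.

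The responses at 0 h in the medium and siRNA experiments were compared as (mQ - pQ) - (siCTU2 - siGL2) over 12 libraries. Of the 7 genes tested, ALDH1L2 again left out, 5 were higher, whereas 16.1% of the 12950 genes tested were higher and 32% were called in all. The same limit from the choice of members holds for this contrast. The difference was 2.31 for PHGDH (SE 0.15), 2.03 for PSPH (SE 0.19) and 1.69 for PSAT1 (SE 0.22) on the log2 scale. For MTHFD2 it was 2.09 (SE 0.17) and for SHMT2 1.57 (SE 0.14), larger than their rise without glutamine because both were lower in siCTU2. MTHFD1L (0.25, SE 0.14, adjusted p = 0.191) and MTHFD1 (-0.14, SE 0.13, adjusted p = 0.436) were not called.

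**Figure D2:**
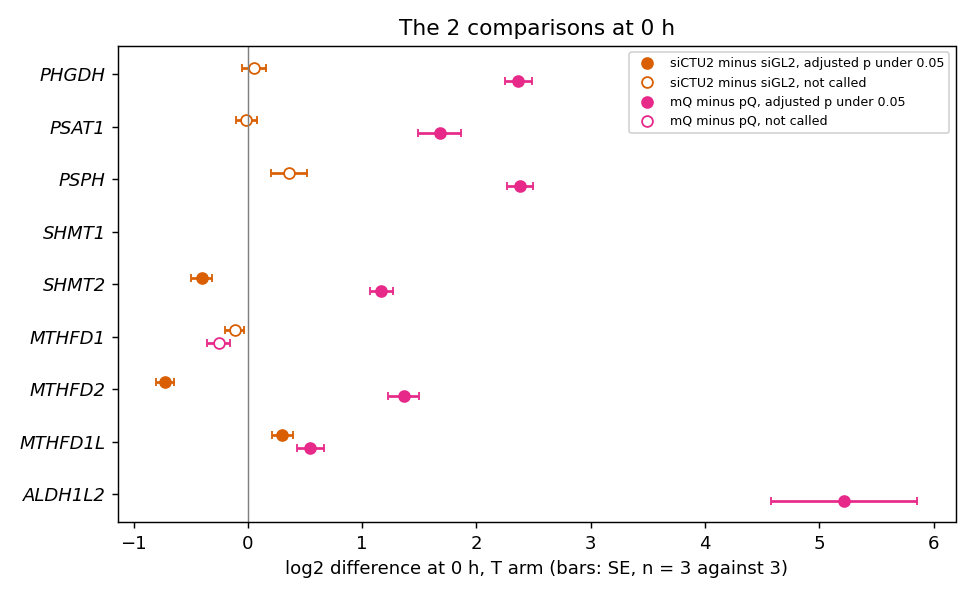
Log2 difference at 0 h in the T arm with its SE for siCTU2 minus siGL2 and for mQ minus pQ (n = 3 against 3), by gene, with filled points for an adjusted p under 0.05. PHGDH, PSAT1 and PSPH lie between 1.68 and 2.38 in the medium experiment, and MTHFD2 and SHMT2 lie on opposite sides of 0 in the 2 experiments.

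ATF4 mRNA itself was at 1345 ± 181 CPM in mQ and 228 ± 16.4 CPM in pQ (SD, n = 3; log2 difference 2.61, SE 0.12, adjusted p = 2.68e-07), and at 241 ± 12.6 CPM in siCTU2 and 237 ± 8.90 CPM in siGL2 (log2 difference 0.02, adjusted p = 0.825). Among 8495 genes with a mean of at least 10 CPM at 0 h, those closest to PHGDH over the 24 libraries were NUPR1 (Pearson r = 0.988), CHAC1 (r = 0.986) and ATF4 (r = 0.984). Closest to PSAT1 were SLC38A1, a glutamine carrier (r = 0.980), and the tRNA synthetases YARS1 (r = 0.967) and WARS1 (r = 0.966). Closest to MTHFD2 were LMO4 (r = 0.981), RAB17 (r = 0.965) and PREPL (r = 0.963). LMO4 shared both shifts of MTHFD2, with means of 19.8 CPM in siCTU2, 38.6 CPM in siGL2, 128 CPM in mQ and 45.4 CPM in pQ. RAB17 (15.8, 27.6, 64.8 and 30.2 CPM, in the same order) and PREPL (62.8, 74.8, 105 and 75.2 CPM) shifted in the same directions. The means and correlations cover both arms at 0 h, with pQ TCHX 0 h replicate 3 among the libraries. These libraries share conditions, so the correlations are descriptions.

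Genes of 6 neighbouring pathways were called in both directions. Without glutamine 5 of 36 tested genes were higher and 9 were lower (background 12.5% and 12.4%), and with CTU2 silenced 5 of 34 were higher and 10 were lower (background 17.8% and 18.2%). The counts of higher genes were thus near the background, and those of lower genes were above it in both comparisons. The 9 lower genes in mQ include GLDC, which could be called in 1 direction only. The lists were chosen with earlier results of these data known, and the counts of single lists are small. Among carriers of serine, glycine and folate, 3 of 7 were higher and 1 was lower in mQ, with the serine carrier SLC1A4 at 796 ± 78.4 CPM against 353 ± 17.3 CPM (log2 difference 1.23, SE 0.10, adjusted p = 1.85e-05) and the glutamine carrier SLC1A5 up by 1.21 (SE 0.11). In siCTU2, 1 of 7 was higher and 3 were lower, among them the mitochondrial folate carrier SLC25A32 (log2 difference -0.96, SE 0.10) and the mitochondrial serine carrier SFXN1 (-0.61, SE 0.08). SFXN1 was also the carrier that was lower in mQ (-0.78, SE 0.10). Of 6 genes listed around the use of serine, 2 were higher and 0 were lower in mQ. These were CTH, which makes cysteine from cystathionine, at 40.0 ± 9.54 CPM against 4.70 ± 0.680 CPM (log2 difference 3.14, SE 0.22, adjusted p = 3.96e-06), and SDSL (1.00, SE 0.23). In siCTU2, 1 of 6 was higher (SPTLC2, 0.43) and 2 were lower (of these SPTLC1, -0.53).

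Other folate enzymes went down in mQ, where 0 of 9 were higher and 4 were lower. TYMS, the thymidylate synthase, was at 240 ± 29.7 CPM in mQ and 495 ± 44.9 CPM in pQ (log2 difference -0.99, SE 0.12, adjusted p = 2.06e-04), and MTR, the methionine synthase, at -0.51 (SE 0.10). In siCTU2, 2 of 9 were higher and 1 was lower, with TYMS at 0.52 (SE 0.08) and MTR at -0.40 (SE 0.09). Of 5 genes listed with the methionine cycle, 0 were higher and 2 were lower in mQ (MAT2A, -0.99, and MAT2B, -0.95). In siCTU2, 1 was higher and 2 were lower (AHCYL1, a homologue of a cycle enzyme, -0.79, and MAT2A, -0.47). In de novo purine synthesis 0 of 6 were higher in both comparisons, with 1 lower in mQ (PAICS, -0.87) and 2 in siCTU2 (PAICS, -0.37, and PFAS, -0.41). Of the glycine cleavage system, GLDC was called lower in mQ (0.383 ± 0.277 CPM against 1.88 ± 0.0413 CPM, edgeR adjusted p = 0.0202). It passed the filter on low counts only through its pQ libraries, so it could be called in 1 direction only. AMT (0.94, adjusted p = 0.341) and DLD were not called in mQ, and DLD, the only gene tested in siCTU2, was not called there.

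**Figure D3:**
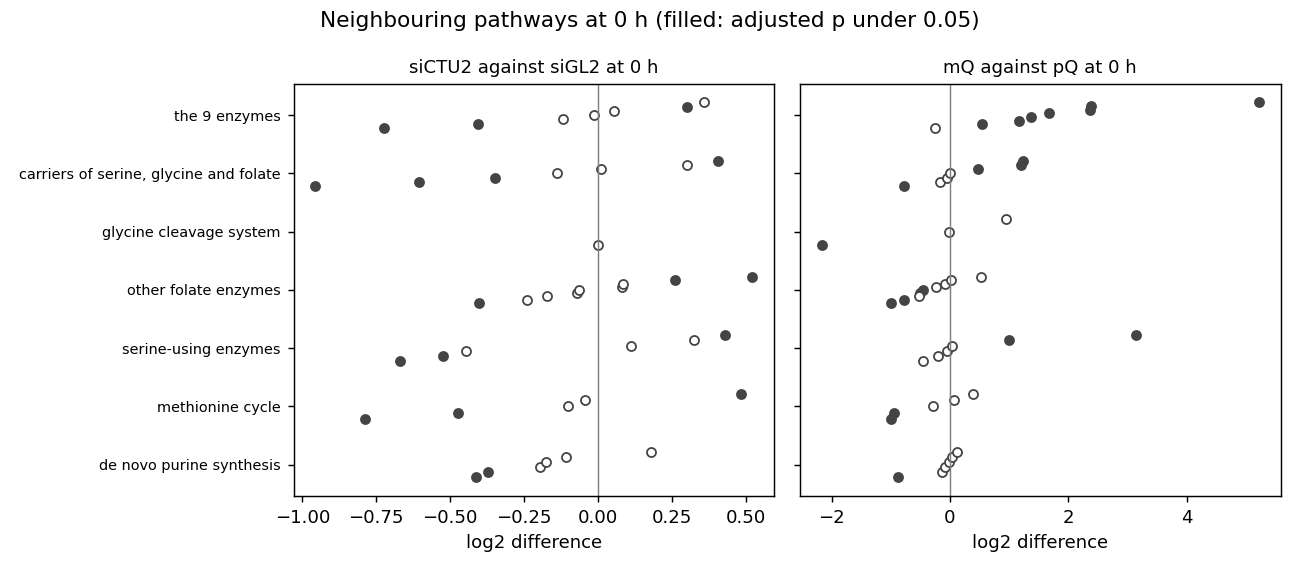
Log2 difference at 0 h of each tested gene of 6 neighbouring pathways and of the 9 enzymes, for siCTU2 against siGL2 and mQ against pQ, filled where the adjusted p was under 0.05. In mQ the enzymes lie mostly to the right, up to 2.38 for PSPH, with ALDH1L2 drawn farther out at a value that rests on the prior count and lay between 4.69 and 9.29 when 1 library was left out, while the called genes of the other folate enzymes, the methionine cycle and purine synthesis lie to the left of 0.

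The higher levels in mQ persisted over the time course. In CPM, PHGDH, PSAT1, PSPH, SHMT2, MTHFD2 and ALDH1L2 were higher in every mQ than in every pQ library at all 6 combinations of arm and time, and MTHFD1L at 5 of 6. The ratio of means lay between 3.19 and 5.97 for PHGDH, 3.08 and 4.49 for PSAT1, 3.47 and 6.18 for PSPH, 1.64 and 2.16 for SHMT2 and 2.48 and 3.45 for MTHFD2. Without the 3 libraries with extra genes the lowest ratio of PHGDH was 4.65 and that of PSPH 4.21. In siCTU2, MTHFD2 was below every siGL2 library at 4 of 6 combinations and SHMT2 at 5 of 6, and MTHFD1L was above at 5 of 6.

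At 5 h, replicate 3 stood apart for PSAT1 and MTHFD2. In the T arm PSAT1 was at 115, 111 and 40.5 CPM in siGL2 and at 152, 132 and 47.0 CPM in pQ. MTHFD2 was at 344, 293 and 115 CPM in siGL2 and at 955, 1053 and 497 CPM in mQ. Replicate 3 was the lowest in 7 of 8 groups at 5 h for both genes, at a median of 0.359 times the mean of replicates 1 and 2 for PSAT1 and 0.388 times for MTHFD2. The exception was the library labelled siCTU2 TCHX 5 h replicate 3, at 171 CPM for PSAT1 against 102 and 54.7 CPM, and at 302 CPM for MTHFD2 against 163 and 134 CPM. MTHFD1L was lowest in replicate 3 in 8 of 8 groups at 5 h, by less (median 0.757). PHGDH had a median of 1.08 at 5 h, and at 3 h PSAT1 had 0.955 and MTHFD2 0.877.

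**Figure D4:**
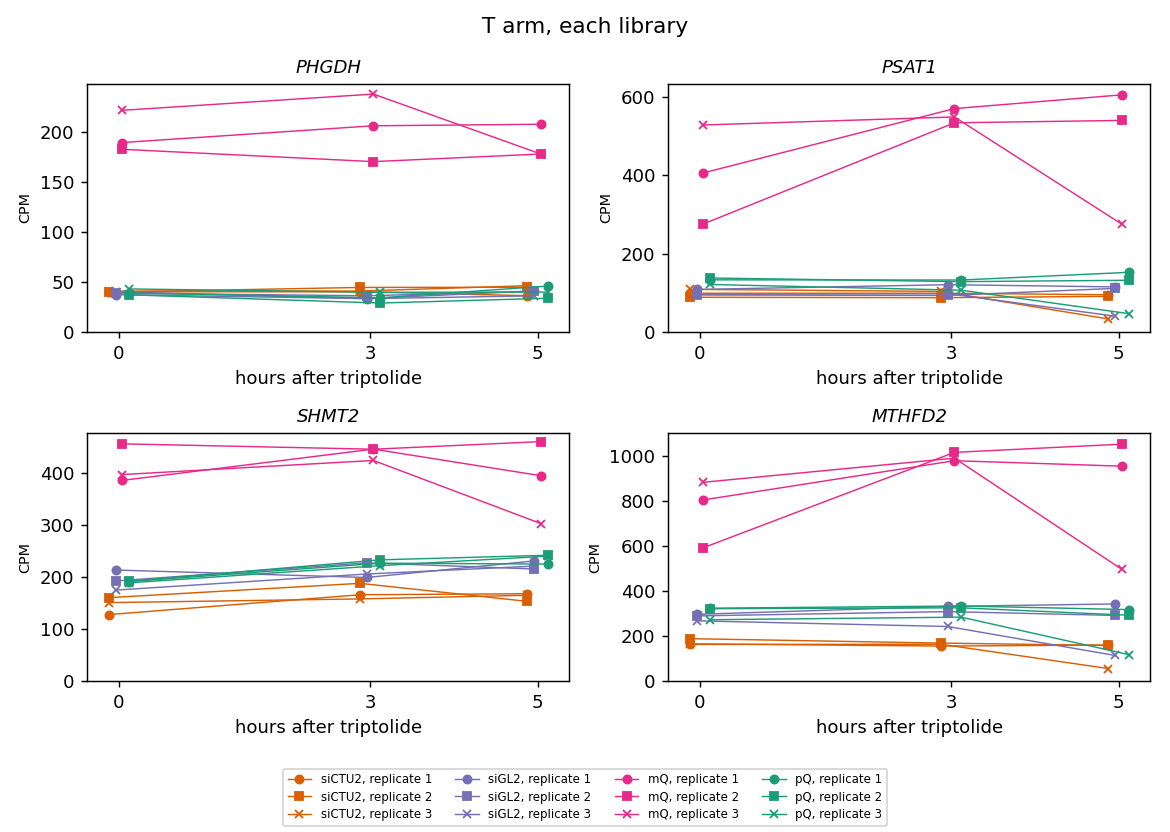
Level in CPM over hours after triptolide in the T arm for PHGDH, PSAT1, SHMT2 and MTHFD2, 1 line per replicate and condition (crosses mark replicate 3). PSAT1 and MTHFD2 of replicate 3 drop at 5 h in all 4 conditions, to 33.4 and 56.7 CPM in siCTU2.

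With transcription blocked, library totals are no fixed scale, and counts were scaled to stable genes, chosen for rising CPM. On that scale the median gene changed by -0.71 in siCTU2, -0.59 in siGL2, -0.66 in mQ and -0.71 in pQ (log2, mean of 3 and 5 h against 0 h), while with TMM scaling, which centres the genes, it lay between -0.02 and 0.02. Genes called higher made up 1.79% to 2.42% of the called genes on the stable scale and 25.3% to 35.1% with TMM. Among the enzymes, in siCTU2 5 of 7 were lower (background 62.6%), in siGL2 2 of 8 (47.5%), in mQ 5 of 8 (58.6%) and in pQ 5 of 7 (64.3%), with 0 higher, while with TMM 0 were called lower in any condition. These counts changed when a replicate was left out. Without replicate 1 they were 0, 0, 1 and 2, without replicate 2 they were 3, 0, 0 and 0, and without replicate 3 they were 4, 5, 6 and 6, in the same order. Relative to the median gene, ALDH1L2 aside, they lay between -0.04 and 0.37 in siCTU2, 0.07 and 0.33 in siGL2, -0.10 and 0.42 in mQ and 0.04 and 0.46 in pQ.

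SHMT2 lost the least in 3 of the 4 conditions. Its change was -0.35 (SE 0.14, adjusted p = 0.0400) in siCTU2, -0.26 (SE 0.15, adjusted p = 0.140) in siGL2 and -0.25 (SE 0.12, adjusted p = 0.0665) in pQ, at the 80.5th, 80.9th and 86.4th percentile of all genes, and these turned to 0.36, 0.34 and 0.45 with TMM, each then called higher. In mQ it was -0.56 (SE 0.12, adjusted p = 9.90e-04). PSAT1 in mQ changed by -0.23 (SE 0.29, adjusted p = 0.493) and MTHFD2 by -0.31 (SE 0.25, adjusted p = 0.300), neither called, and without replicate 3 both values turned, to 0.28 and 0.07. ALDH1L2 in mQ fell by 1.38 (SE 0.32, adjusted p = 0.00181), a call lost with TMM (-0.69, adjusted p = 0.181), at 3 h alone, without replicate 1 and without replicate 2. The difference in change between siCTU2 and siGL2 was called for 0 of 8 genes (background 0.105%), and that between mQ and pQ for 0 of 8 (background 0%). At an unadjusted p under 0.05, 772 and 878 of all genes passed in these 2 edgeR tests, and 0 of these enzymes. Without replicate 3, PSAT1 (0.64, adjusted p = 0.0113) and MTHFD2 (0.47, adjusted p = 0.0284) were called between mQ and pQ, as were 9.44% of the 14132 genes tested in that fit.

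No effect of cycloheximide on these mRNAs passed the edgeR test. Of the genes tested, 0 of 7 were called in siCTU2 (background 21.1%), 0 of 8 in siGL2 (12.7%), 0 of 8 in mQ (5.24%) and 0 of 7 in pQ (12.7%), and none had an unadjusted p under 0.05, the lowest being 0.0537 for ALDH1L2 in siGL2. The log2 effects lay between 0.07 and 0.39 in siCTU2, -0.18 and 0.16 in mQ and -0.19 and 0.04 in pQ, and in siGL2 between -0.18 and -0.03 with ALDH1L2 at -1.65. In siCTU2 the highest value was that of MTHFD2, 0.39 (SE 0.26), beside 0.22 for the median gene, in a fit that holds the library labelled siCTU2 TCHX 5 h replicate 3. The mQ fit likewise holds mQ T 5 h replicate 3. Without the 3 libraries with extra genes the background was 14.2% in siCTU2, 23.2% in mQ and 15.5% in pQ. No call of these enzymes in mQ changed under any alternative. With TMM, SHMT2 was lower with cycloheximide in siGL2 (-0.27, adjusted p = 0.0313) and pQ (-0.28, adjusted p = 0.0269). Over all genes, 95.6% to 99.2% of the called genes were higher with cycloheximide on the stable scale and 76.8% to 86.2% with TMM. ATF4 rose with cycloheximide in all 4 conditions, by 0.86 to 1.07.

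The index of translation-dependent decay (TDD) is the scaled count with cycloheximide minus that without, over the 0 h count. Its difference between siCTU2 and siGL2 passed an unadjusted p of 0.05 for 0 of 7 enzymes (background 8.15%), with or without replicate 3. In that test the indices from replicate 3 at 5 h of siCTU2 were 1.23 for MTHFD2, 1.19 for PHGDH and 1.14 for PSAT1, beside 0.327 for the median gene. The TCHX library behind them held CTU2 at 10.4 CPM, and its part was not tested otherwise. Between mQ and pQ it passed for 1 of 7 (background 4.78%), SHMT2, with a difference of 0.09 (SE 0.03, linear model over 12 values, unadjusted p = 0.0231, adjusted p = 0.924). In this model the 3 h and 5 h indices of a replicate share their 0 h count, so the 12 values are not independent. Higher indices made up 89.3% (siRNA) and 72.8% (medium) of the genes passing, and 74.0% and 49.6% with TMM. In the medium experiment that share was 39.3% without replicate 1, 33.6% without replicate 2 and 91.6% without replicate 3. SHMT2 did not pass with TMM, in the edgeR interaction or without any 1 replicate. ALDH1L2 and SHMT1 were too low for the index.

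**Figure D5:**
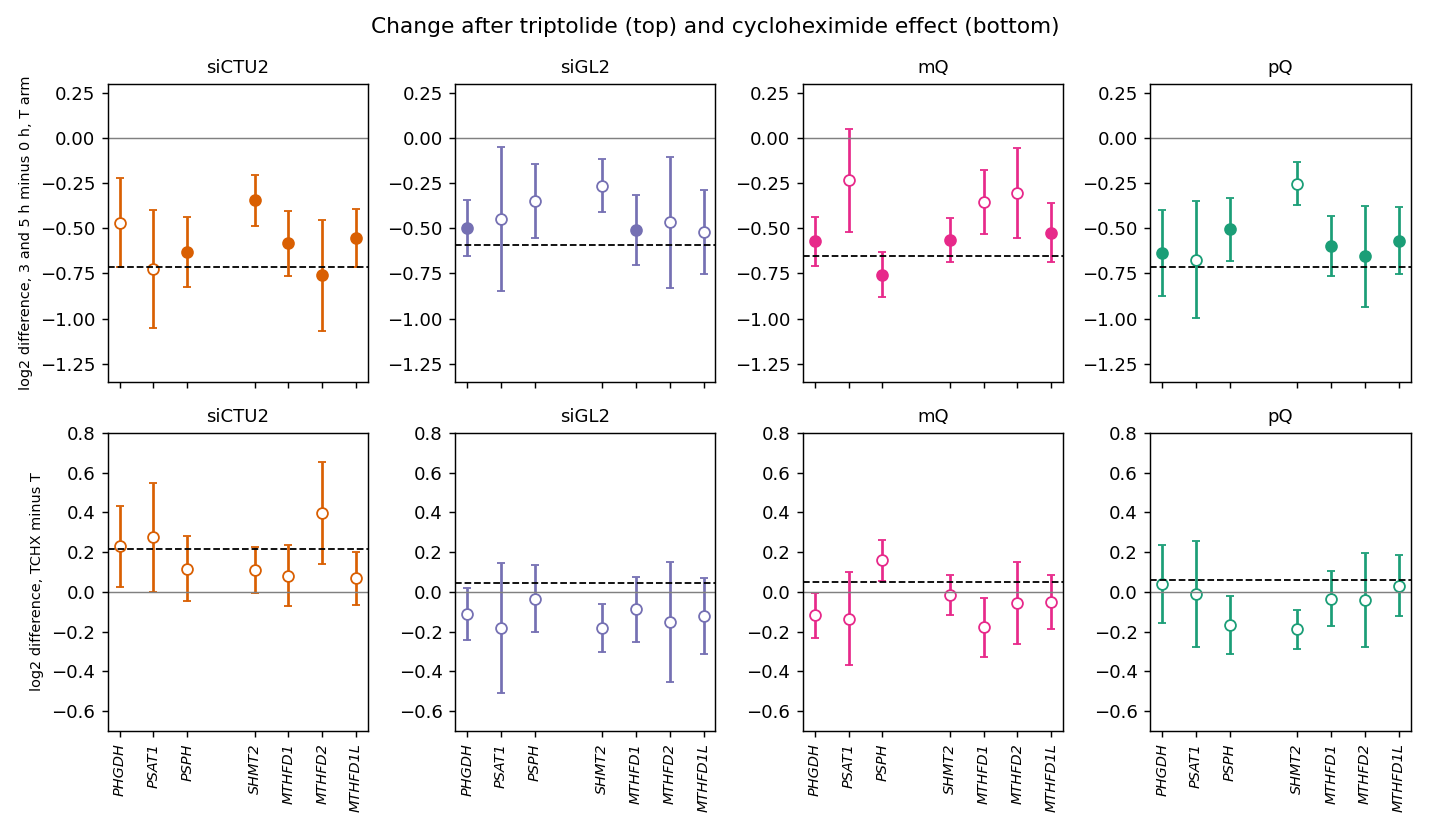
Log2 change after triptolide in the T arm (top) and log2 effect of cycloheximide at 3 and 5 h (bottom) with SE, by gene and condition, on the stable gene scale, with filled points for an adjusted p under 0.05 and a dashed line for the median gene. ALDH1L2 and SHMT1 are not drawn. All points of the top row lie below 0, on either side of the dashed lines at -0.59 to -0.71 and up to 0.46 above them for SHMT2 in pQ, and no point of the bottom row is filled.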

How the data were processed

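The authors trimmed reads with fastp 0.20.1, mapped them to GRCh38.p13 with HISAT2 2.2.1 and counted them per gene with HTSeq 0.13.5 and the NCBI annotation, per the labels and the methods of the study. The deposited table holds raw read counts, with no molecular identifiers, so intervals cover counting error only. Groups came from the sample titles. CPM were computed over all genes. Tests used edgeR 4.0.16 in R 4.3.3 (filterByExpr, TMM at 0 h, quasi-likelihood F-test, Benjamini-Hochberg over all genes, threshold 0.05), with 6 libraries in a 0 h fit and 18 per condition in the time course. The time course was scaled to 198 (siRNA) or 82 (medium) stable genes by the median of ratios. A gene was stable if above 0.2 CPM at 0 h and at 3 or 5 h at least 1.1 times its 0 h CPM, in both arms and all replicates. The TDD index was fitted by a linear model on state, time and replicate number for genes of at least 10 scaled counts at 0 h. The scripts were tested on simulated data. Alternatives were DESeq2 1.42.0, other scalings and filters, other arms and times, the replicate block and left-out libraries. In the siRNA experiment at 0 h, deviations of same-numbered libraries correlated with r of 0.111 to 0.301, so every pair passed 0.1. In the other fits not every pair did. The main edgeR fits nevertheless held no replicate block, also in the siRNA experiment at 0 h. There the block called 41.5% of all genes, against 36% without it. In the TDD alternatives the mean over times used limma 3.58.1. By rule all 9 enzymes were to be named in every comparison. At 0 h each is given, and in the time course those that moved most or least and the others by range. Of each pathway list at most the 2 genes with the smallest p are named, apart from SFXN1 in mQ, which was lower in both comparisons. The members and lists were chosen with earlier results of these data known.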

Additional observations from a re-analysis of the deposited data

Results flagged for a closer look

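Responses at 0 h differed between the medium and the siRNA experiment, by an edgeR interaction over 12 libraries, for PHGDH (2.31 on the log2 scale), PSAT1 (1.69), PSPH (2.03), SHMT2 (1.57), MTHFD2 (2.09) and ALDH1L2 (7.55). ALDH1L2 passed the filter on low counts only through mQ, its value depends on the prior count and is no bound, and in the TCHX arm it was not called (2.49, adjusted p = 0.267).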

How the results depend on the processing

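At 0 h the number of enzymes called stayed within 1.5 times the main count under all alternatives. Of the time course counts, TMM scaling gave 0 enzymes lower after triptolide in siCTU2, siGL2, mQ and pQ (5, 2, 5 and 5 on the stable scale), and signs turned for PSPH (0.079), SHMT2 (0.36), MTHFD1 (0.10) and MTHFD1L (0.14) in siCTU2, PHGDH (0.10), SHMT2 (0.34) and MTHFD1 (0.084) in siGL2, PHGDH (0.12), SHMT2 (0.13) and MTHFD1L (0.16) in mQ, and PHGDH (0.069), PSPH (0.20), SHMT2 (0.45), MTHFD1 (0.092), MTHFD2 (0.013) and MTHFD1L (0.12) in pQ. At 3 h alone 1 was lower in siCTU2 and 1 in siGL2, and at 5 h alone 1 in siGL2 and 1 in pQ. Stable genes at both times (8 and 3 genes) gave 6 in siGL2 and 8 in mQ. The replicate block gave 4 in siGL2, adding SHMT2 and MTHFD1L, and added PSAT1 and SHMT2 in pQ; pairs of same-numbered libraries passed r of 0.1 in 40 of 45 cases in siGL2 and 43 of 45 in pQ, not in all. At 0 h it changed the call of PSPH in the siRNA experiment and no other. Leaving out 1 replicate gave 0 to 4 lower in siCTU2, 0 to 5 in siGL2, 0 to 6 in mQ and 0 to 6 in pQ. For the cycloheximide effect TMM gave 1 enzyme in siGL2 and 1 in pQ, and stable genes at both times 1 in pQ. For the difference in change between mQ and pQ, leaving out 1 replicate gave 0 to 2. For the TDD index in the medium experiment the edgeR interaction gave 0, the own 0 h library of each arm 4 (PSAT1, PSPH, SHMT2 and MTHFD2, where 22.8% of all genes passed), the mean over times with replicate block 0, and leaving out 1 replicate 0. The cause was not tested. Both arms at 0 h without pQ TCHX replicate 3, and the count ratios of ALDH1L2 without 1 library, were chosen after seeing the data. Depth limits SHMT1 and, outside mQ, ALDH1L2, whose ratios have wide intervals.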
